A study of Mus musculus with 8 samples.

Results

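A set of 6 genes of mucosal secretion, the trefoil factors *Tff1*, *Tff2* and *Tff3*, the membrane mucin *Muc1*, the mucin-folding factor *Agr2* and the aspartic protease *Ctse* (cathepsin E), was followed in cultured mouse liver progenitors. They were found in the deposited RNA sequencing table by symbol, as 6 of 23467 genes. The set was chosen by the RPKM of *Tff1* in these same libraries (RPKM are reads scaled by gene length and library size). *Tff1* had the largest fitted increase in L1L2_Alb over control libraries, and the question was whether the other mucosal genes followed it. Ranked were those of 13421 genes tested that passed the threshold for genotype and lay on the same side of control in all 5 L1L2_Alb libraries. The difference of *Tff1* between genotypes is therefore given as a description, without a test.

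The cells were hepatoblasts of fetal livers at day E14.5 on a B6;129 mixed background. Control cells were wild type, and L1L2_Alb cells had the genotype Lats1-/-;Lats2f/fl;Alb-cre, in which *Lats1* was knocked out in all cells of the embryo and *Lats2* was deleted by a Cre driven from the Albumin promoter, that is, in cells of the hepatoblast lineage. Each genotype was sampled as hepatoblasts on collagen (iHB), as hepatocytes induced with 12.5 ng/ml oncostatin M for 5 days (iHP) and as biliary epithelial cells induced on Matrigel for 14 days (iBEC). Control had 1 library in each of the 3 stages, and L1L2_Alb had 1 iHB, 2 iHP and 2 iBEC libraries. No statement was found whether the L1L2_Alb libraries came from different embryos, so the spread within a pair may be technical. The p-values for genotype and for stage measure this spread together with differences of the genotype effect between stages. Those within L1L2_Alb, and those of the test across stages, rest on the pairs alone. No spread between control libraries could be measured.

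Trefoil factors are small secreted peptides held together by disulfide bonds between cysteines, and they are released with mucus in the stomach and intestine, where they help to cover and close wounds of the epithelium. *Tff1* is best known from surface mucous cells of the stomach, *Tff2* from gastric mucous neck cells and *Tff3* from intestinal goblet cells. In bile ducts, trefoil factors and mucins are known from large ducts and injured biliary epithelium.

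The coding sequences of the 3 trefoil genes are printed to show how far the transcripts can be told apart. They were read from GENCODE vM21, and capitals mark the in-frame codons for cysteine. *Tff1* and *Tff3* are whole, and *Tff2* runs from its first to its last cysteine codon (bases 85 to 381 of the coding sequence).
Tff1: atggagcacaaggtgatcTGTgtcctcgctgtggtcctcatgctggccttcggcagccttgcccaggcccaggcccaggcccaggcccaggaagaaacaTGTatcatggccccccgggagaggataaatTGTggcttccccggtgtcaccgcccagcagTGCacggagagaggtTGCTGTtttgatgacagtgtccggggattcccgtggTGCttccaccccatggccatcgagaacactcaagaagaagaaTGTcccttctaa
Tff2: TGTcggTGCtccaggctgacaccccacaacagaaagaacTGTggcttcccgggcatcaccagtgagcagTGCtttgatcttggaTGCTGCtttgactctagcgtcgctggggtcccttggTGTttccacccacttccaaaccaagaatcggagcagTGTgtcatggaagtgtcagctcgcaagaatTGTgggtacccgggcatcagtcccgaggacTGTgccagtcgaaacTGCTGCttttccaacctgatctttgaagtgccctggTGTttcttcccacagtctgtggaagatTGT
Tff3: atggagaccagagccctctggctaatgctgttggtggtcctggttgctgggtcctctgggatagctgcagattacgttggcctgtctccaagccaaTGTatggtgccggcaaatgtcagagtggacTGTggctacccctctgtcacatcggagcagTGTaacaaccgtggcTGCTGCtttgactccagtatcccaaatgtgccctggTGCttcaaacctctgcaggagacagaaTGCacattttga
*Tff1* has 87 codons with 8 for cysteine, *Tff2* has 129 codons with 14, and *Tff3* has 81 codons with 7. The spacing of 6 cysteine codons that marks a trefoil domain (9 or 10, 9, 4, 0 and 10 codons apart) was found 1 time in *Tff1*, 2 times in *Tff2* and 1 time in *Tff3*. Between whole transcripts, the longest run of identical bases was 11 for *Tff1* and *Tff2*, 12 for *Tff1* and *Tff3* and 14 for *Tff2* and *Tff3*. No stretch of 32 bases in *Tff2*, *Tff3*, *Muc1*, *Agr2* or *Ctse* occurred in a transcript of another annotated gene on either strand. In *Tff1*, 221 of 703 exonic bases are shared with *Gm15318*, a long noncoding RNA on the opposite strand. The strand setting of the counting is not given in the sources used here, and the library kit does not mark strand, so reads from *Tff1* and *Gm15318* in that stretch cannot be told apart. The deposited *Tff1* values fit a length of 478 bases. If these are the last bases of the transcript, 162 of their 447 stretches of 32 bases occur in *Gm15318*.

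The libraries held 18.4 to 33.2 M reads, as recovered from the deposited values. RNA of the deleted genes did not show the loss that the labels give. The paper itself reports lower LATS1/2 expression in its cultured L1L2_Alb cells, in a supplementary figure that was not seen here. *Lats1* was at 5.39 to 11.2 RPKM in control and 7.12 to 22.7 RPKM in L1L2_Alb libraries, and *Lats2* at 6.90 to 10.2 RPKM in control and 10.9 to 27.6 RPKM in L1L2_Alb libraries. On the log2(RPKM + 1) scale *Lats2* was higher in 5 of 5 libraries labelled L1L2_Alb (difference 0.90 ± 0.203 SE, limma adjusted p = 0.0312), whereas *Lats1* was higher in 4 of 5 and lower in iHP library 2 (7.12 against 11.2 RPKM in control iHP, limma adjusted p = 0.46), and no value here separates a truncated RNA from an intact one. *Ctgf* and *Cyr61*, textbook targets of YAP that were picked after their values were seen, were each higher in 5 of 5 libraries labelled L1L2_Alb (1.73 ± 0.261 and 1.93 ± 0.201, limma adjusted p = 0.00796 and 0.00221). *Ankrd1*, which the paper names beside them as a YAP signature gene, did not pass (0.58 ± 0.279, limma adjusted p = 0.237). Libraries are therefore named by their label throughout. Of 6 hepatocyte markers 4 were called lower and 0 higher, among them *Alb* (-1.71 ± 0.394), *Ttr* (-1.95 ± 0.252) and *Fgb* (-1.53 ± 0.304), each lower in 5 of 5 libraries labelled L1L2_Alb. Their summed level overlapped, at 7360 to 26200 RPKM in control and 9690 to 15100 RPKM in libraries labelled L1L2_Alb, with *Apoa1* above its control in 3 of 5 (0.65 ± 0.397). Of 7 markers of gut and gastric epithelium, 4 were under 1 RPKM in every library (*Cdx1*, *Cdx2*, *Sox2* and *Atp4b*) and 0 were called. Their sum was below control in iHB and iHP labelled L1L2_Alb and above it in iBEC. It was 23.7 RPKM in control and 4.16 RPKM in L1L2_Alb for iHB, and 16.5 against 3.21 and 1.38 RPKM for iHP. For iBEC it was 6.86 RPKM in control and 19.4 and 15.3 RPKM in libraries labelled L1L2_Alb.

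*Tff1* was low in control cells and high in every library labelled L1L2_Alb. In iHB it was 1.03 RPKM in control and 63.9 RPKM in the library labelled L1L2_Alb. In iHP it was 5.75 RPKM in control and 528 and 86.3 RPKM in the libraries labelled L1L2_Alb. In iBEC it was 2.33 RPKM in control and 36.3 and 56.5 RPKM in the libraries labelled L1L2_Alb. The lowest library labelled L1L2_Alb, at 36.3 RPKM, was above the highest control, at 5.75 RPKM. *Tff1* was chosen by its rise between these same groups, and the share of all genes with such a gap is not given here. Against the control library of the stage, *Tff1* was 62.1-fold higher in iHB, 91.7- and 15.0-fold higher in iHP and 15.6- and 24.3-fold higher in iBEC. The control values rested on 14 reads in iHB (exact Poisson 95% interval 7.65 to 23.5, for counting error only), 77 in iHP and 37 in iBEC, and those of the libraries labelled L1L2_Alb on 449 to 4652 reads. The fitted difference was 4.56 ± 0.545 (SE) on the log2(RPKM + 1) scale. Next below it, in the ranking that chose the set, were *Slc39a8*, a zinc and manganese transporter, at 4.18 and *S100a7a*, an S100 calcium-binding protein, at 4.15.

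Among the libraries labelled L1L2_Alb, *Tff1* was highest in iHP, but the 2 iHP libraries differed from each other 6.12-fold, and the lower of them, at 86.3 RPKM, was within that spread of the iHB library. The 2 iBEC libraries differed 1.56-fold. With genotype as a block, the difference of *Tff1* in iBEC minus iHP was -1.82 ± 0.603 on the log2(RPKM + 1) scale, which did not pass the threshold (limma adjusted p = 0.131). The difference was -2.45 (adjusted p = 0.0467) without the iHP library 2 labelled L1L2_Alb and -1.02 (adjusted p = 0.244) without the iHP library 1.

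**Figure D1:**
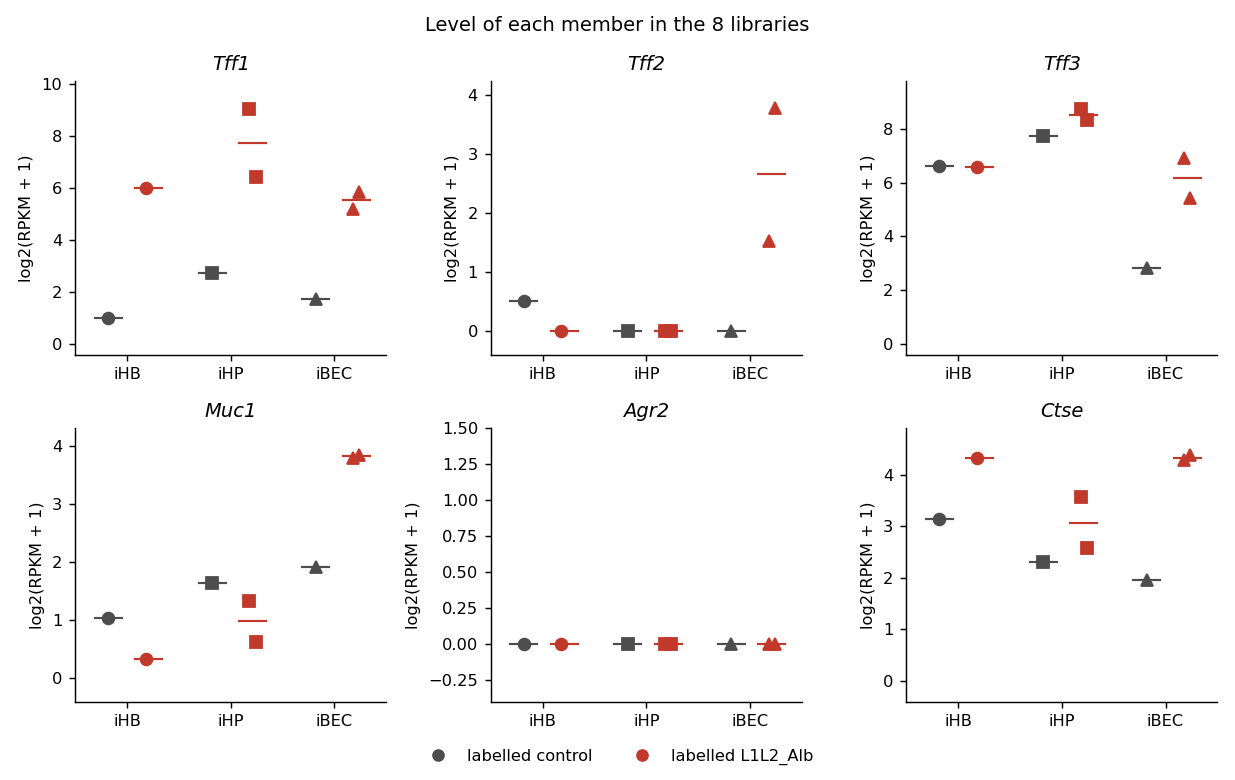
Level of each of the 6 genes as log2(RPKM + 1) in the 8 libraries by stage, with control in grey and libraries labelled L1L2_Alb in red, 1 point per library and a bar at the group mean. *Tff1* lay above control in every stage, *Tff2* was above 1 RPKM only in the 2 iBEC libraries labelled L1L2_Alb, and *Agr2* was listed at 0 in all 8 libraries.

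*Tff2* was above its control in iBEC and near or at 0 elsewhere. It was listed at 0 in the control iBEC library and was 1.89 and 12.8 RPKM in the iBEC libraries labelled L1L2_Alb, from 28 and 174 reads. It was 0.431 RPKM, from 7 reads, in control iHB and was listed at 0 in the iHB library labelled L1L2_Alb and in all 3 iHP libraries. The 2 iBEC libraries labelled L1L2_Alb thus stood above all other libraries, and they differed from each other 6.75-fold. Against a floor of 3 reads per library, *Tff2* was at least 12.0- and at least 80.8-fold higher than in control iBEC. It was above control in 2 of 5 libraries labelled L1L2_Alb, with a fitted difference over the stages of 0.83 ± 0.666 (SE) and an adjusted p of 0.489 (limma). Its mean passed the filter of 1 RPKM only through these 2 libraries, and without the iBEC stage the difference was -0.22.

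*Tff3* was the most abundant trefoil gene in control cells, and it was lowest in control iBEC. Its iHB levels were 98.0 RPKM in control and 94.2 RPKM in the library labelled L1L2_Alb. In iHP it was 215 RPKM in control and 425 and 321 RPKM in the libraries labelled L1L2_Alb. In iBEC it was 6.11 RPKM in control and 119 and 41.6 RPKM in the libraries labelled L1L2_Alb. The iHB pair was close to equal, whereas both iHP and both iBEC libraries labelled L1L2_Alb stood above their control, 1.98- and 1.49-fold in iHP and 19.4- and 6.80-fold in iBEC. The fitted genotype difference was 1.48 ± 0.591 (SE, higher in 4 of 5 libraries) and did not pass the threshold (limma adjusted p = 0.157).

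Of the 5 members in the fit, 1 was called between stages with genotype as a block, and it was *Tff3*, which was lower in iBEC than in iHP, with a difference of -3.23 ± 0.654 on the log2(RPKM + 1) scale (limma adjusted p = 0.0366). Of all genes, 4.12% were called in that comparison, 1.67% as lower. The call was lost without the iHP library 1, the iHP library 2 or the iBEC library 2 labelled L1L2_Alb, with the difference between -3.15 and -3.47, and also with quantile normalization (adjusted p = 0.0503) and without a filter (adjusted p = 0.0993). Between iBEC and iHB 0 members were called, at 5.72% of all genes, and 2 had an unadjusted p under 0.05 in limma (*Muc1* and *Tff3*). Between iHP and iHB 0 members and 0 genes in all were called by limma, and *Tff1* and *Ctse* had an unadjusted p under 0.05.

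*Muc1*, a membrane mucin of ductal and glandular epithelium, lay below its control in iHB and iHP and above it in iBEC. Its iHB levels were 1.05 RPKM in control and 0.265 RPKM in the library labelled L1L2_Alb, from 67 and 17 reads. In iHP it was 2.13 RPKM in control and 1.53 and 0.546 RPKM in the libraries labelled L1L2_Alb. In iBEC it was 2.79 RPKM in control and 12.9 and 13.4 RPKM in the libraries labelled L1L2_Alb. All 3 iHB and iHP libraries labelled L1L2_Alb were below their control, 3.97-fold in iHB and 1.39- and 3.89-fold in iHP, and both iBEC libraries were above it, 4.64- and 4.81-fold. Over the stages the fitted difference was 0.26 ± 0.487 (SE, higher in 2 of 5 libraries, limma adjusted p = 0.788), and it was -0.68 without the iBEC stage and -0.06 with a pseudocount of 0.1. Of all genes tested, 14.4% were likewise above control in both iBEC libraries and below it in both iHP libraries. The difference of the genotype effect between stages had an unadjusted p of 0.00532 for *Muc1* and an adjusted p of 0.494 (limma moderated F). In that test 0 members and 0 genes in all were called, and *Muc1* and *Tff3* were the members with an unadjusted p under 0.05.

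Between the 2 iBEC and the 2 iHP libraries labelled L1L2_Alb, *Muc1* was the 1 called gene of the 5 members in the fit (difference 2.84 ± 0.348, SE, limma adjusted p = 0.012). Of all genes, 3.41% were called, 2.96% as higher in iBEC. The call was lost without any one of the 4 libraries, at an adjusted p of 0.0545 and 0.0677 without iHP library 1 and 2, and of 0.0815 and 0.0682 without iBEC library 1 and 2, while the difference stayed between 2.49 and 3.20. *Tff3* differed in the opposite direction, by -2.37 ± 0.497, and did not pass (adjusted p = 0.0507). *Tff2* entered the fit through the same iBEC libraries, so its values in them stand without a test.

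*Ctse*, an endosomal aspartic protease of gastric and other mucosal epithelium, was higher in all 5 libraries labelled L1L2_Alb than in the control of the stage. Its iHB levels were 7.77 RPKM in control and 19.0 RPKM in the library labelled L1L2_Alb. In iHP it was 3.93 RPKM in control and 10.8 and 4.94 RPKM in the libraries labelled L1L2_Alb. In iBEC it was 2.88 RPKM in control and 18.6 and 19.8 RPKM in the libraries labelled L1L2_Alb. The smallest gap was that of iHP library 2, at 1.26-fold, and its level was below that of control iHB. The fitted difference was 1.47 ± 0.346 (SE, limma adjusted p = 0.0356), and *Ctse* was the 1 called gene of the 4 members tested for genotype, where 9.57% of all genes were called, 6.20% as higher and 3.37% as lower. The call was lost at an adjusted p of 0.0756 without iHP library 1, 0.061 and 0.0801 without iBEC library 1 and 2 labelled L1L2_Alb, 0.118, 0.0636 and 0.163 without the iHB, iHP and iBEC stage, and 0.0923 without a filter, with the difference between 0.95 and 1.87. A position above control in all 5 libraries was shared by 22.9% of all genes tested.

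*Agr2*, a protein disulfide isomerase of the endoplasmic reticulum needed for folding of intestinal mucin, was listed at 0 in all 8 libraries, so no fold or test could be given. Of 151 genes of the ribosome and proteasome, 1 was also listed at 0.

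**Figure D2:**
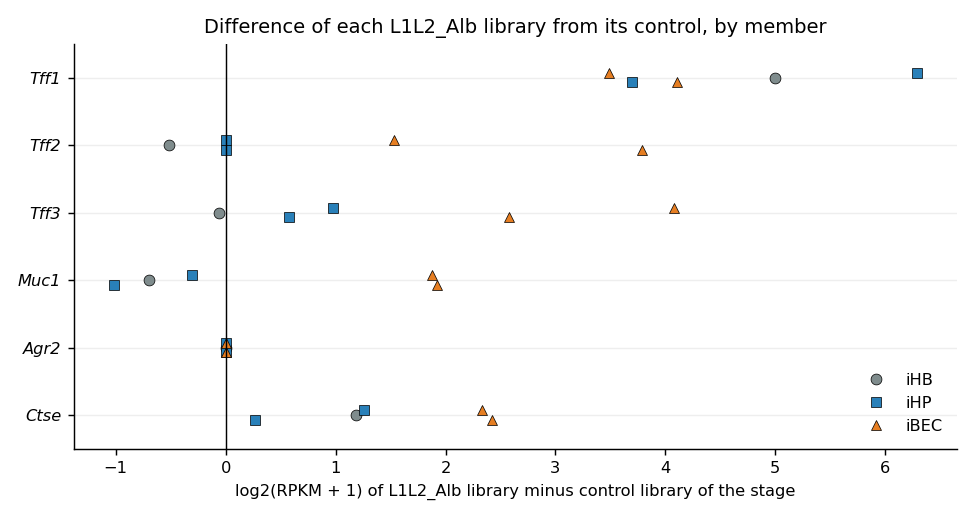
Difference of log2(RPKM + 1) between each of the 5 libraries labelled L1L2_Alb and the control library of its stage, 1 point per library, for the 6 genes. All 5 points of *Tff1* and of *Ctse* were above 0, and for *Tff2*, *Tff3* and *Muc1* the 2 iBEC points were the highest.

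In iBEC *Tff3*, *Muc1* and *Ctse* were higher in both libraries labelled L1L2_Alb than in the 1 control library. So were *Tff1*, whose rise chose the set, and *Tff2*, which passed the filter only through these 2 libraries. The share of all genes above control in both is not given here, and each comparison rests on the same 1 control library. In iHB, with 1 library a genotype, *Tff1* and *Ctse* lay above control and *Tff2*, *Tff3* and *Muc1* below it, *Tff3* by 1.04-fold. These are bulk samples, in which fewer cells of a type and less RNA per cell cannot be told apart. In the libraries labelled L1L2_Alb the markers of BECs moved in both directions, with the cytokeratins *Krt7* (2.17 ± 0.274) and *Krt19* (1.31 ± 0.26) called higher and the secreted phosphoprotein gene *Spp1* (-1.50 ± 0.336) called lower. Of 4 mesothelial markers, *Msln* was called higher (3.61 ± 0.30) and made up most of the sum, which was 109 to 268 RPKM in control and 1050 to 3550 RPKM in libraries labelled L1L2_Alb. *Wt1* (0.93 ± 0.258, adjusted p = 0.0595) and *Upk3b* (0.53 ± 0.468, adjusted p = 0.528) did not pass, and the untested *Lrrn4* was above control in 0 of 5. Of 5 markers of pancreas and extrahepatic duct, *Sox17*, a transcription factor of the extrahepatic biliary bud, was called higher (2.48 ± 0.295) and the other 4 were under 1 RPKM in every library, with *Ptf1a* listed at 0 throughout. Summed macrophage markers were 1340 to 2180 RPKM in control and 680 to 3110 RPKM in libraries labelled L1L2_Alb, and highest in the 2 iBEC libraries, at 2830 and 3110 RPKM. Of 7 markers of fibroblasts and stellate cells 0 were called, and their sum was 3940 RPKM in control and 1250 RPKM in iHB labelled L1L2_Alb, 2440 RPKM in control and 661 and 1040 RPKM in iHP, and 2550 RPKM in control and 3580 and 1600 RPKM in iBEC. The erythroid *Hbb-b1* was called lower (-2.09 ± 0.482, adjusted p = 0.0335). Their part in the differences of the members was not tested.

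The trefoil genes lie next to each other on mouse chromosome 17, in the order *Tff3*, *Tff2*, *Gm15318* and *Tff1* in GENCODE vM21 (GRCm38), and their protein-coding neighbours did not share the level of *Tff1*. *Abcg1*, a cholesterol transporter beside *Tff3*, was 1.56 to 6.20 RPKM over the 8 libraries and did not pass the test (difference -0.12 ± 0.36, limma adjusted p = 0.871). *Umodl1* beyond it was at most 0.0249 RPKM. On the side of *Tff1*, the membrane serine protease *Tmprss3* was at most 0.451 RPKM, and *Ubash3a*, a regulator of T cell receptor signalling, was at most 2.17 RPKM and highest in control iHB.

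The genes whose profile over the 8 libraries was nearest to that of *Tff1*, by the root mean square difference of log2(RPKM + 1) after centring each gene, were *Siglecg* at 0.984, *Serpinb9b* at 1.06, *Slc39a8* at 1.09, *Porcn* at 1.15 and *Msln* at 1.16, where *Tff1* itself varied by 2.53 about its mean. *Siglecg*, an inhibitory lectin receptor best known from B cells, was 3.31, 4.86 and 1.56 RPKM in control iHB, iHP and iBEC and 76.2 RPKM in iHB, 83.4 and 65.0 RPKM in iHP and 30.8 and 43.5 RPKM in iBEC labelled L1L2_Alb. It thus lacked the gap between the 2 iHP libraries that *Tff1* had. *Porcn*, the acyltransferase that lipidates Wnt proteins, was 17.9 to 39.3 RPKM in control and 138 to 377 RPKM in libraries labelled L1L2_Alb. *Serpinb9b* belongs to a cluster of similar serpin genes whose reads may be shared, so its level is uncertain. In nearness to *Tff1* among 13421 genes, *Tff3* was at rank 694 (2.13) and *Ctse* at 1062 (2.21). *Tff2* was at 9897 (2.70) and *Muc1* at 11151 (2.82). None of these members was near *Tff1*, since their differences were close to or above its own 2.53. Counted from *Tff3* and from *Ctse*, *Tff1* was at rank 12156 and 13296.

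**Figure D3:**
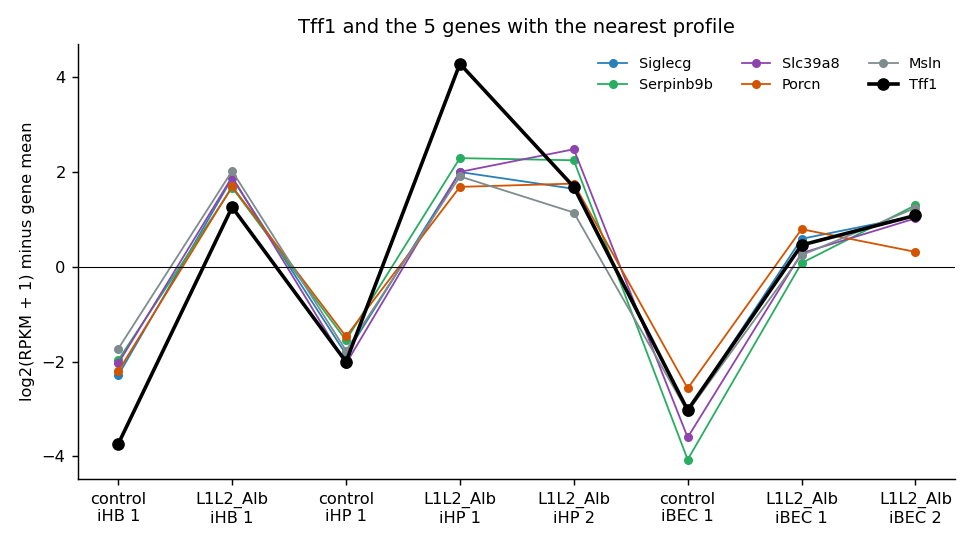
Profiles of *Tff1* (black) and the 5 genes nearest to it over the 8 libraries, as log2(RPKM + 1) minus the mean of the gene. All 6 lines were below 0 in the 3 control libraries and above 0 in the 5 libraries labelled L1L2_Alb, and *Tff1* had the highest point, in iHP library 1.

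Among the members themselves the closest pair was *Tff2* and *Muc1*, with *Muc1* the 17th nearest gene to *Tff2* at 0.758. The single nearest gene was *Prl2c3*, a placental prolactin-family gene with near-identical copies whose level is uncertain, for *Tff2* (0.438), *Cyp11a1*, the side-chain cleavage enzyme of steroid synthesis, for *Muc1* (0.35), *2010109I03Rik* for *Tff3* (0.613) and *Rgs1*, a regulator of G-protein signalling known from leukocytes, for *Ctse* (0.391). *Cyp11a1* was 1.19, 1.61 and 2.48 RPKM in control iHB, iHP and iBEC, 0.177 RPKM in iHB, 0.428 and 0.0529 RPKM in iHP and 12.0 and 17.9 RPKM in iBEC labelled L1L2_Alb. It therefore had the same order as *Muc1*, below control in iHB and iHP and above it in iBEC.

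Beyond the members, 76 genes of 10 lists of mucosal secretion were in the table. Of these, 36 passed the filter, and 13 were called for genotype, 9 higher and 4 lower, which is 36.1% of those tested beside 9.57% of all genes, where 832 were called higher and 452 lower (612 and 577 after upper-quartile scaling). The median difference of the tested list genes was 0.21, beside 0.06 over all genes. The 4 genes *Zg16*, *Spink4*, *Cldn18* and *Fut2* were under 1 RPKM in every control library and passed the filter through libraries labelled L1L2_Alb, so their calls (3 of 4) are favoured by the filter and their values are given without a test. Of the other 32, 10 were called, 6 of them higher. The count of 13 fell to 7 (7 lost and *Ctsd* gained) and 8 (6 lost and *Klf4* gained) without iHP library 1 and 2 labelled L1L2_Alb, and to 5 and 1 without the iHB and the iHP stage. The calls of *Zg16*, *Cldn18*, *Fut2*, *Slpi*, *Lcn2*, *Foxa2* and *Napsa* were lost without iHP library 1, and those of *Zg16*, *Cldn18*, *Fut2*, *Slpi*, *Foxa2* and *Napsa* without iHP library 2. Without iBEC library 1 the calls of *Zg16*, *Slpi*, *Lcn2* and *Napsa* were lost, and without iBEC library 2 those of *Cldn18*, *Fut2* and *Foxa2*. The calls of *B3gnt3*, *Galnt3*, *Gcnt1*, *Gcnt3*, *Wfdc2* and *Foxa3* passed without each of these 4 libraries, and with either other scaling.

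Enzymes that build mucin-type sugar chains made up 4 of the 6 genes called higher that reached 1 RPKM in a control library. Their list, of mucin folding and glycosylation, had 16 genes in the table, and 10 were tested. Of these, 9 reached 1 RPKM in a control library, among them *Creb3l1*, which is not an enzyme, and 4 were called higher and 0 lower. Over all genes tested, 6.20% were called higher. The share among all genes that reached 1 RPKM in a control library is not given here. *B3gnt3*, which extends these chains, was 8.17, 10.3 and 6.38 RPKM in control iHB, iHP and iBEC and 42.9 RPKM in iHB, 59.99 and 66.91 RPKM in iHP and 26.3 and 34.0 RPKM in iBEC labelled L1L2_Alb. It rose by 2.28 ± 0.177 (limma adjusted p = 0.000827) and passed in all 13 alternatives. *Galnt3*, which adds the first sugar to the protein, rose by 1.28 ± 0.197 (adjusted p = 0.00859). The branching enzymes *Gcnt3* and *Gcnt1* rose by 1.49 ± 0.182 and 1.43 ± 0.231 (adjusted p = 0.0038 and 0.00983). *Fut2*, the secretor fucosyltransferase, was at most 0.635 RPKM in control, 0.347 RPKM in iHB, 17.7 and 19.5 RPKM in iHP and 7.52 and 6.93 RPKM in iBEC labelled L1L2_Alb. *C1galt1*, which makes the common core of the chains, did not pass (0.15 ± 0.188), nor did *Creb3l1*, a transcription factor of secretory cells (0.29 ± 0.177).

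The mucins themselves were low. None of the 5 gel-forming mucins in the table reached the filter, and 4 were under 1 RPKM in every library. The highest of them, *Muc2*, was at most 0.366 RPKM in control and reached 1.25 RPKM in the iHB library labelled L1L2_Alb, and *Muc6* was at most 0.525 RPKM. The membrane mucin *Muc15* was also under the filter, at most 1.00 RPKM. *Muc13*, the 1 membrane mucin tested, was below control in 5 of 5 libraries labelled L1L2_Alb, as were 10.1% of all genes tested, and did not pass (-0.80 ± 0.332, limma adjusted p = 0.17).

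Goblet cell and gastric products were mostly under the filter, with 2 of 6 and 1 of 11 genes tested. *Zg16*, a lectin of goblet cell granules, was at most 0.169 RPKM in control and 4.88 RPKM in iHB, 13.2 and 4.94 RPKM in iHP and 1.03 and 0.264 RPKM in iBEC labelled L1L2_Alb. It was lowest in iBEC among the libraries labelled L1L2_Alb. *Cldn18*, a tight junction claudin of stomach and lung, was at most 0.978 RPKM in control and 1.05 RPKM in iHB, 6.29 and 4.96 RPKM in iHP and 1.24 and 2.54 RPKM in iBEC labelled L1L2_Alb. *Spink4*, a protease inhibitor of goblet cells, was 0.177 RPKM in iHB, 9.11 and 3.22 RPKM in iHP and 5.70 and 5.55 RPKM in iBEC labelled L1L2_Alb and at most 0.455 RPKM in control. *Gkn2*, a partner of *Tff1* in gastric mucus, was listed at 0 in all 3 controls, in iHB and in iBEC library 1, and was 1.47 and 2.24 RPKM in iHP and 0.432 RPKM in iBEC library 2 labelled L1L2_Alb. *Vsig1*, a junction protein of gastric epithelium, went the other way, at 0.0678, 1.05 and 0.908 RPKM in control iHB, iHP and iBEC and at most 0.515 RPKM in libraries labelled L1L2_Alb, below control in 5 of 5. *Slc26a9*, a chloride transporter of gastric and airway epithelium, was 2.01 and 2.60 RPKM in iBEC labelled L1L2_Alb and at most 0.172 RPKM in the other 6 libraries. *Clca3*, a goblet cell granule protein, was at most 0.369 RPKM in every library. These 4 genes were under the filter and were not tested.

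Among antimicrobial and luminal secreted proteins 8 of 10 genes were tested, 1 was called higher and 2 lower. *Wfdc2*, a secreted protein of ductal and airway epithelium, was 39.7 to 68.4 RPKM in control and 92.0 to 123 RPKM in libraries labelled L1L2_Alb and rose by 1.09 ± 0.19 (limma adjusted p = 0.0129). The protease inhibitor *Slpi* and the siderophore-binding *Lcn2* went the other way, and fell by 1.45 ± 0.338 and 1.87 ± 0.438 (adjusted p = 0.0349 for each). *Ltf* (lactoferrin) was 27.6 to 362 RPKM in control and 0.428 to 109 RPKM in libraries labelled L1L2_Alb and did not pass (-3.0 ± 1.134). *Lyz1*, whose reads may be shared with the similar *Lyz2*, had a difference of -0.05 ± 0.43.

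Transcription factors of mucosal epithelium were called in both directions, with 7 of 10 tested. *Foxa2*, an endodermal pioneer factor, rose by 1.18 ± 0.276 (limma adjusted p = 0.0351), and its relative *Foxa3* fell by 1.30 ± 0.225 (adjusted p = 0.0122). *Klf4*, known from goblet cell differentiation, was 7.76 to 13.5 RPKM in control and 21.1 to 73.2 RPKM in libraries labelled L1L2_Alb and did not pass (1.76 ± 0.465, adjusted p = 0.0517), nor did *Klf5* (0.52 ± 0.238). Of the chemokine receptors reported to bind trefoil factors, *Cxcr4* (-1.26 ± 0.436) and *Cxcr7* (-0.67 ± 0.348) did not pass. The 1 ion transporter tested, *Slc12a2*, did not pass either (0.07 ± 0.207).

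Relatives of *Ctse* and *Agr2* did not follow as a group, with 4 of 6 tested. *Napsa* (napsin A), an aspartic protease of lung and kidney, was 15.3 to 53.6 RPKM in control and 2.35 to 23.8 RPKM in libraries labelled L1L2_Alb, and fell by 1.69 ± 0.436 (limma adjusted p = 0.0475), in the direction opposite to *Ctse*. The lysosomal protease *Ctsd* was above control in 5 of 5 libraries labelled L1L2_Alb and did not pass (0.74 ± 0.232, adjusted p = 0.0836). *Txndc12*, a relative of *Agr2* in the endoplasmic reticulum, did not pass (0.58 ± 0.199, adjusted p = 0.107).

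**Figure D4:**
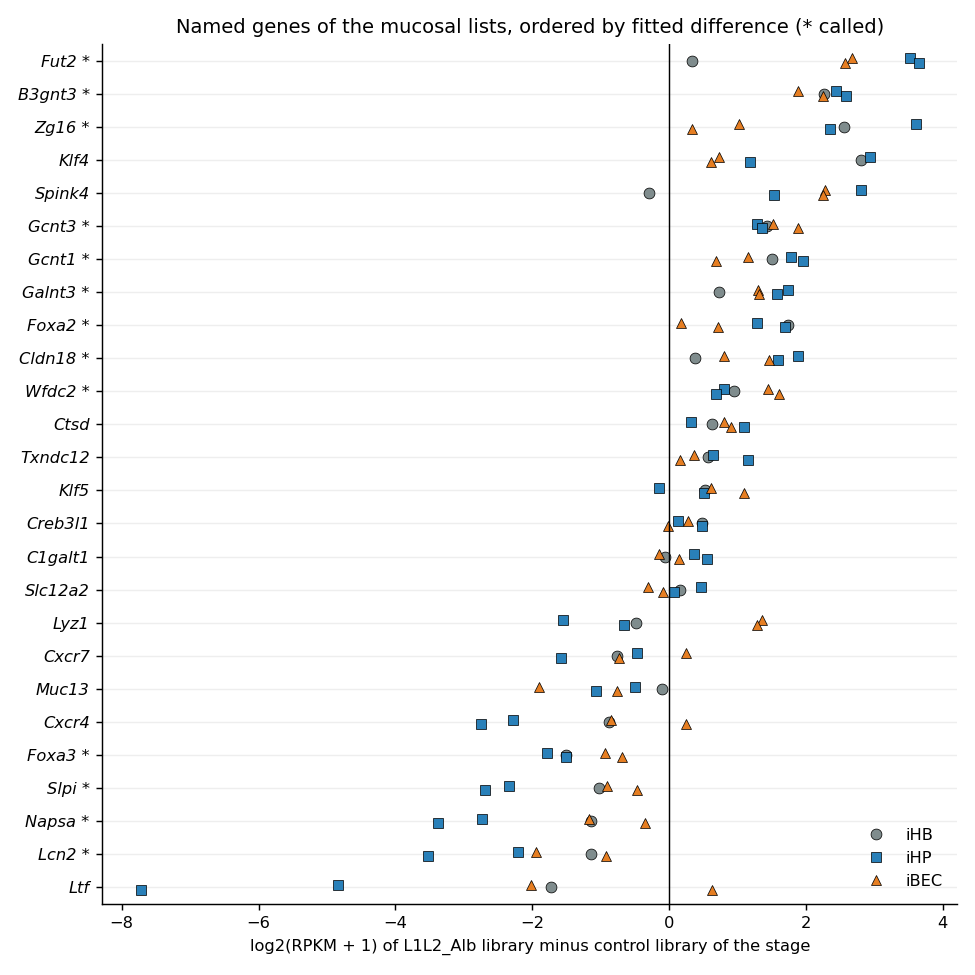
Difference of log2(RPKM + 1) between each library labelled L1L2_Alb and the control library of its stage for the named list genes that passed the filter, ordered by the fitted difference, with an asterisk at the 13 called genes. The asterisks of *Zg16*, *Cldn18* and *Fut2* mark calls that are favoured by the filter. The called glycosylation enzymes *B3gnt3*, *Galnt3*, *Gcnt3* and *Gcnt1* had all 5 points above 0, and the called genes *Foxa3*, *Slpi*, *Napsa* and *Lcn2* had all 5 below 0.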

How the data were processed

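RNA of 8 libraries was measured with a TruSeq RNA kit and Illumina sequencing. The authors deposited 1 RPKM value per gene and library, scaled by gene length and library size. The unit was inferred from the values. The submitters' processing notes name Bowtie 0.12.2 and mm8, and the counting method is not given in the sources used here. Of 23471 entries, 4 (2 repeated symbols) were left out. Reads were recovered from the steps of short RNA genes (at least 22 per library) and used for depth, counting intervals and a floor of 3 reads, not for a count model. Whole reads (within 0.02) were found for 120 of the 135 genes searched.

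The fit took genes averaging 1 RPKM or more over the 8 libraries, as log2(RPKM + 1), a scale that understates changes of low genes. It was made in R 4.3.3 with the trended eBayes of limma 3.58.1, and stage or genotype entered as a block. A gene was called at a two-sided Benjamini-Hochberg adjusted p under 0.05 over all genes tested. The scripts were tested on simulated data. Named were the 6 members, every called list gene and up to 2 uncalled genes per list with the highest mean, the nearest profiles and the chromosomal neighbours. The row *Clca1* was left out of its list, because that symbol named another gene in the table's older naming. Members and lists were chosen with earlier results of these data known. Figures were drawn with matplotlib 3.10.9.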

Additional observations from a re-analysis of the deposited data

Results flagged for a closer look

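In 3 members the genotype difference on the log2(RPKM + 1) scale had opposite signs in iBEC and iHB, with 1 control library per stage. The difference in iBEC minus that in iHB was 3.18 for *Tff2*, 3.38 for *Tff3* and 2.60 for *Muc1*. *Tff2* entered the fit through the same iBEC libraries, so its difference stands without a test. Its iHB value of -0.52 rested on 7 reads in control and 0 in L1L2_Alb. For *Tff3* and *Muc1* the moderated F test of the genotype effect across the 3 stages (limma) gave an unadjusted p of 0.0158 and 0.00532. The adjusted p was 0.649 and 0.494, so that 0 of them passed. The share of all genes with such opposite signs is not given here. The iHB value of *Tff3* was -0.06, close to 0.

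Of the list genes, *Lyz1* was above control in both iBEC libraries labelled L1L2_Alb and below it in both iHP libraries, and its difference in iBEC minus that in iHP was 2.42 (adjusted p = 0.631, limma). For *Slc12a2* the difference in iHP minus that in iBEC was 0.47 (adjusted p = 1.0, limma).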

How the results depend on the processing

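The 1 member called for genotype (*Ctse*) became 0 without a filter on low values and without the iHB, the iHP or the iBEC stage, and 0 to 1 when 1 library labelled L1L2_Alb was left out. The 13 called list genes became 7 without a filter, 5 without the iHB stage, 1 without the iHP stage and 7 to 10 when 1 library was left out. Member calls between stages went from 1 to 2 with upper-quartile scaling, 0 without a filter and 0 to 2 with 1 library left out, and with quantile normalization the 1 call was *Muc1* in iBEC against iHB (adjusted p = 0.0287, limma) in place of *Tff3*. Between iBEC and iHP libraries labelled L1L2_Alb they went from 1 to 2 with a pseudocount of 0.1, 0 without a filter and 0 to 1 with 1 library left out. Replicate numbers 1 and 2 of iHP and iBEC were not shown to mark shared samples (correlation of their deviations -0.022 over 13421 genes). With the replicate block 4 members were called between these libraries, *Tff1*, *Tff2*, *Tff3* and *Muc1*. The share of all genes called with that block is not given here. *Tff2* was also the member added with a pseudocount of 0.1. It entered the fit through the same iBEC libraries, so its calls in this comparison are favoured by the filter.

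Signs of uncalled differences turned in 15 cases. For genotype these were *Tff2* (-0.22) and *Muc1* (-0.68) without iBEC, *Muc1* (-0.06) with a pseudocount of 0.1, *C1galt1* (-0.03) without iHP, *Lyz1* (0.11 and 0.55 without iHB and iHP, and -0.20 to 0.19 with 1 library left out) and *Slc12a2* (-0.03 with upper-quartile scaling, -0.05 without iHP and -0.01 to 0.13 with 1 library left out). For iBEC against iHB *Tff1* turned from -0.01 to 0.17 (pseudocount 0.1), 0.21 (upper quartile), 0.24 (quantile) and -0.07 to 0.27 with 1 library left out (0.06 without iHP library 1). The cause was not tested. Depth limited *Tff2*, with 0 to 7 reads outside the iBEC libraries labelled L1L2_Alb, and *Muc1* in iHB, with 17 reads.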
